A study of Mus musculus with 2 samples.

Results

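The Mir379-Mir410 cluster is a run of microRNA hairpins in the imprinted Dlk1-Dio3 domain of mouse chromosome 12. Its members were taken by position alone, as every listed gene on either strand within a fixed interval of mm10 that opens before Mir379 and closes after Mir3072. This gave 38 of 1973 listed genes, 34 on the plus strand and 4 on the minus strand, which span 38.9 kb, from 109709060 to 109747960. The counts came from microRNA sequencing of small RNA from hearts of B6NCrl mouse embryos at embryonic day 10.5. There was 1 group of 2 libraries, both of mixed sex and with no treatment named, each made from its own pool of hearts, 69 embryos for replicate 1 and 51 for replicate 2. The labels call them biological replicates and name no allele or agent. Each pool averages over many embryos, so the spread between the libraries holds pool and library preparation together, and no comparison of conditions is possible.

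The Dlk1-Dio3 domain carries protein-coding genes that are expressed from the paternal chromosome, and noncoding RNAs (Meg3, Rian, Mirg and the microRNAs) that are expressed from the maternal chromosome. The Mir379-Mir410 microRNAs are cut from long noncoding RNA of the maternal strand, and many of the hairpins resemble each other and are thought to have arisen by tandem duplication in placental mammals. The cluster is known from brain and embryonic tissue: in neurons its transcription depends on Mef2 factors, and mice that lack it adapt poorly to birth. In cultured cardiomyocytes, miR-410 and miR-495 are known to promote proliferation.

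A microRNA acts through its seed, bases 2 to 8 of the mature arm, which pairs with target messenger RNAs. The mature arms below are from RefSeq (GRCm38.p6), written 5′ to 3′ with the seed in capitals. They are the listed arms of the 5 most abundant members, together with the 5p arm of Mir1193, which shares a seed with Mir379, and the arms of the Mir409 hairpin, which is read opposite a minus-strand gene.
miR-411-5p: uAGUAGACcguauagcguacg
miR-411-3p: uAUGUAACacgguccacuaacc
miR-379-3p: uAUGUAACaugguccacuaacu
miR-379-5p: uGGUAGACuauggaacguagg
miR-1193-5p: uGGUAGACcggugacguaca
miR-487b-5p: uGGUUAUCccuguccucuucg
miR-369-5p: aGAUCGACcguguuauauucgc
miR-369-3p: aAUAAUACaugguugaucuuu
miR-541-5p: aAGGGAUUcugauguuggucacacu
miR-541-3p: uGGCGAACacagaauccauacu
miR-409-5p: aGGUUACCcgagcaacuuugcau
miR-409-3p: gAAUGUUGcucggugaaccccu

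The seed AUGUAAC is shared by miR-379-3p and miR-411-3p, which have the same base at 20 of 22 positions. The seed GGUAGAC is shared by miR-379-5p and miR-1193-5p, whose arms have the same base at 10 of 20 positions. The RefSeq table holds 73 mature arms within the interval, with 66 different seeds. Of these arms, 14 share their seed with another arm of the cluster, in 7 pairs, and 49 have a seed that no other mouse arm in the table has. These tallies cover listed arms only: miR-487b-3p, miR-376c-3p, miR-539-3p and miR-485-5p have no entry in the table used here, nor do the hairpins of Mir666 and Mir544. A further 10 have a seed found outside the cluster, as miR-410-3p does with the miR-344d and miR-344e 3p arms. Listed arms with different seeds can also be close in sequence. The 3p arms of Mir300 and Mir381, for example, have the same base at 19 of 22 positions and differ at 1 base of the seed.
miR-300-3p: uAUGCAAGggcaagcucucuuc
miR-381-3p: uAUACAAGggcaagcucucugu

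The files count reads per hairpin, so the 5p and 3p arms of a member cannot be told apart. No mature arm of the interval was found letter for letter in a hairpin at another place. Of the 38 members, 4 share a run of 20 or more bases with an annotated hairpin at another place, and reads that map to several places were not given to genes. These are Mir411 with Mir758, and Mir487b and Mir376c with Mir376b, which has no row in the files. The run of 21 bases shared by Mir411 and Mir758 takes in 12 bases of miR-411-3p and none of miR-411-5p. The run of 20 bases shared by Mir487b and Mir376b takes in none of miR-487b-5p. Its overlap with miR-487b-3p, which has no entry, was not assessed, so counts of Mir487b hold an unknown error from this run. The run of 31 bases shared by Mir376c and Mir376b takes in 18 bases of miR-376c-5p, so counts of Mir376c are uncertain. At the place of Mir299a and Mir299b, which lie over each other on opposite strands, 21 of the 22 bases of miR-299a-5p and 18 of the 22 of miR-299a-3p also occur as a run on the other strand. Reads within these runs fit both strands, so the counts of Mir299a and Mir299b are uncertain too.

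Several hairpins carry common runs of letters, shown here in capitals for abundant members (RefSeq, GRCm38.p6, plus strand of chromosome 12).
Mir411: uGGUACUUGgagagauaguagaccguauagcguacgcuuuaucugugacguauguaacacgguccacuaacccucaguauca
Mir487b: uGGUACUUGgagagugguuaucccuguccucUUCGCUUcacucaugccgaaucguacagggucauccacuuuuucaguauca
Mir369: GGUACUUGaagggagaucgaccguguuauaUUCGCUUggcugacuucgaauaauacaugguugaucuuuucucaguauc
Mir382: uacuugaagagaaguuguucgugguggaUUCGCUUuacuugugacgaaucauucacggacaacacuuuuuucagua
Mir154: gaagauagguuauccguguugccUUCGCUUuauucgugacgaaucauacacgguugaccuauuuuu
The letters UUCGCUU occurred in 10 of 37 hairpins of the interval (27.0%) and in 2 of 968 mouse hairpins elsewhere (0.207%). The letters GGUACUUG occurred in 6 of 37 (16.2%) and in 2 of 968 (0.207%). Both strands were searched, hairpins in the table ran from 39 to 147 bases, and the 2 runs never overlapped within a hairpin of the cluster. Both were picked after the hairpins had been read, so the counts are a description. Mir323, Mir487b, Mir369 and Mir410 hold both runs. The letters do not go with 1 level: members with UUCGCUU ran from 144 CPM (Mir495) to 10676 CPM (Mir487b).

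Each level is a CPM value, the gene's own-strand count relative to the library's total of own-strand gene counts. The libraries held 4163656 and 4789068 such counts, so the 3 counts that a count of 0 allows are worth 0.721 and 0.626 CPM. The cluster held 306728 counts in replicate 1, or 7.37% of the library (95% exact interval 7.34 to 7.39). It held 205357 counts in replicate 2, or 4.29% (4.27 to 4.31). The mean share was 5.83% ± 2.18 (SD, n = 2), and the difference between the libraries was far wider than these intervals, which cover counting error only. In bulk pools, fewer cells of a type and less microRNA per cell cannot be told apart. Heart muscle microRNAs were present in both libraries, with Mir208a, Mir208b and Mir499 of the myosin introns summing to 34740 and 69047 CPM. The libraries stood apart in markers of other tissue: microRNAs of the Hox-expressing trunk summed to 17890 and 2051 CPM, of epithelium to 7068 and 2089, and of liver and gut to 3351 and 293.

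A few members held most of the counts. In each library 3 members held at least 50% of the cluster's counts and 11 held at least 90%. The 9 most abundant members came in the same order in both libraries. Mir411 led, with 14698 CPM in replicate 1 and 9132 in replicate 2 (11915 ± 3936, mean ± SD, n = 2), and ranked 19 among all listed genes by mean. It lies at chromosome 12, 109710175 to 109710256, in no annotated host gene. Mir487b had 13005 and 8346 CPM (10676 ± 3294; 109727333 to 109727414, in no host gene). Mir411 exceeded Mir487b 1.13-fold and 1.09-fold, less than either gene differed between the libraries. Mir369, whose 3p arm is known from work on translation in resting cells, had 9648 and 5370 CPM (7509 ± 3025; 109743418 to 109743496, overlapping an exon of Mirg).

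Mir541 had 7040 and 4109 CPM (5575 ± 2072; 109742409 to 109742498, in an intron of Mirg). Mir379, the first hairpin of the cluster, had 5520 and 3368 CPM (4444 ± 1522; 109709060 to 109709125, in no host gene). Mir382 had 5274 and 2754 CPM (4014 ± 1783; 109733771 to 109733846, Mirg exon). These 6 members were the ones among the 50 most abundant listed genes, and their CPM was higher in replicate 1 in every case. Within the 6, the order of Mir541, Mir379 and Mir382 was the same in both libraries. Their means lay closer together than their SDs, but these SDs hold the shift between libraries that the 6 share.

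Mir381 had 3346 and 2449 CPM (2897 ± 634; 109726822 to 109726896, no host gene). Mir1193, which shares a 5p seed with Mir379, had 2273 and 1214 CPM (1743 ± 748; 109715671 to 109715791, no host gene). Mir323 had 1974 and 854 CPM (1414 ± 792; 109712508 to 109712593, no host gene). Below Mir323 the order was not the same in both libraries. Mir154 had 1954 and 678 CPM (1316 ± 902; 109738433 to 109738498, Mirg intron). Mir134, known for limiting dendritic spine growth in neurons, had 1721 and 803 CPM (1262 ± 649; 109734139 to 109734209, Mirg exon). Mir300 had 1138 and 613 CPM (876 ± 371; 109724313 to 109724391, no host gene). Mir323 was above Mir154 and Mir134 in both libraries, while Mir154 was above Mir134 in replicate 1 and below it in replicate 2. In replicate 1 the 95% exact intervals of Mir323 (1932 to 2017 CPM) and Mir154 (1912 to 1997 CPM) overlapped. The means of these 3 members lay within 1 SD of each other, but the SDs hold the shift between libraries that the 3 share.

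**Figure D1:**
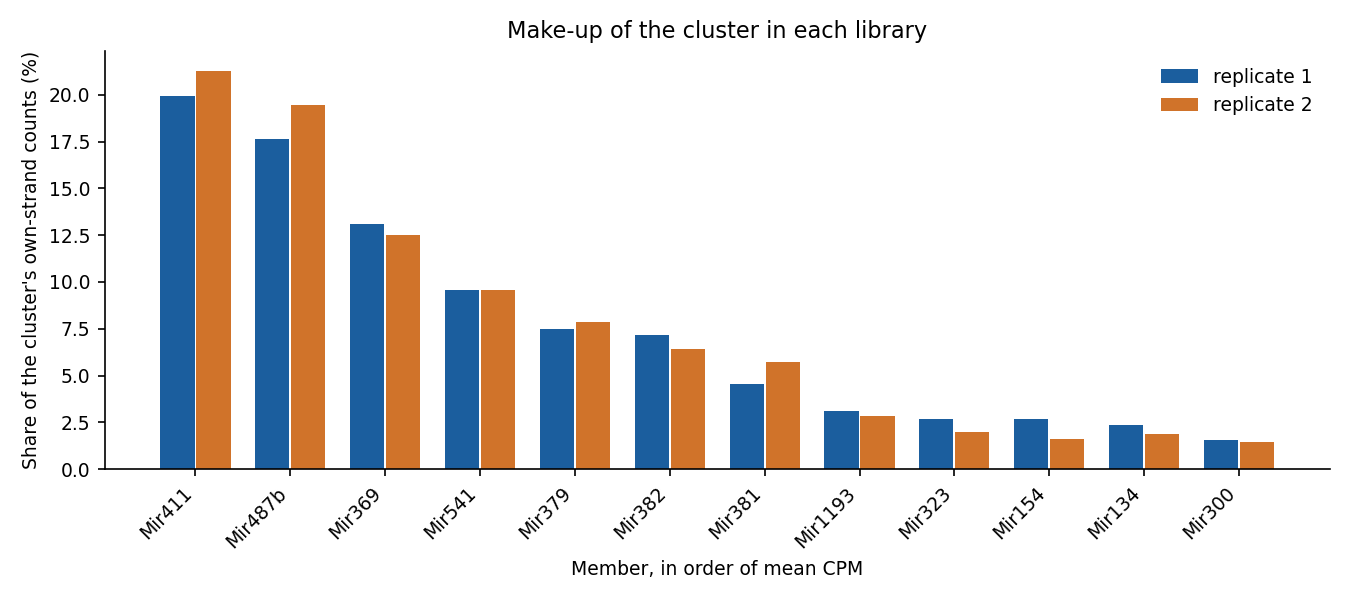
Share of the cluster's own-strand counts (%, vertical axis) held by each of the 12 most abundant members in replicate 1 and replicate 2. Mir411 held 19.95% and 21.3% and Mir487b 17.7% and 19.5%, and most members' bars differ little between the libraries, Mir154 being an exception, although the cluster's total share of the library went from 7.37% to 4.29%.

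The other members with counts were lower. At least 100 CPM was reached in both libraries by 25 members and at least 1000 CPM by 8. Of all 1973 listed genes, 195 and 79 reached these levels. The 2 members linked to cardiomyocyte proliferation were not among the abundant ones. Mir410 had 327 and 155 CPM (241 ± 122; 109743715 to 109743795, Mirg exon), and Mir495 had 187 and 100.4 CPM (144 ± 61.4; 109718754 to 109718816, no host gene). No own-strand count was found in either library for 5 rows, namely Mir453, Mir654 and the minus-strand rows Gm25750, Gm25252 and Gm24321. Gm27379, Mir544 and Mir299b had between 1.67 and 5.52 CPM in each library. Median own-strand CPM over all 38 members was 298 in replicate 1 and 161 in replicate 2. Among genes with at least 10 counts in a library, the median was 496 and 241 for members and 90.8 and 71.5 for all such genes.

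The level showed little relation to the position. Across the 29 members with at least 100 counts in both libraries, log2 mean CPM against distance from Mir379 gave Spearman rho = -0.16 and Pearson r = -0.11, across genes that share libraries. Levels of the next listed hairpin on the plus strand often differed by much. Over 29 such pairs with counts, the median fold was 6.22 in replicate 1 and 6.19 in replicate 2, and 12 pairs differed at least 10-fold in both libraries. The higher partner was the same in both libraries in 28 of the 29 pairs. Mir412, 49 bases upstream of Mir369, had 206 and 144 CPM, so that Mir369 exceeded it 46.8-fold and 37.3-fold. Mir1197, 71 bases upstream of Mir323, had 13.7 and 2.92 CPM, on 57 and 14 counts, and was exceeded 144-fold and 292-fold.

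The 9 plus-strand members that overlap an exon of Mirg held 24.6% and 22.7% of the cluster's counts. The 4 in a Mirg intron held 12.5% and 11.4%, and the 21 upstream of the annotated Mirg gene held 62.9% and 65.8%. These are own-strand counts. With the opposite-strand reads described below, of which those at Mir409 lie in a Mirg intron, the order of exon and intron turned: intronic hairpins held 25.1% and 22.6% of reads, exonic ones 18.8% and 17.9%, and those upstream 56.1% and 59.5%. Exonic members ran as high as Mir369 and as low as Mir668, with 85.3 and 51.4 CPM, so an exonic position went with no single level.

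**Figure D2:**
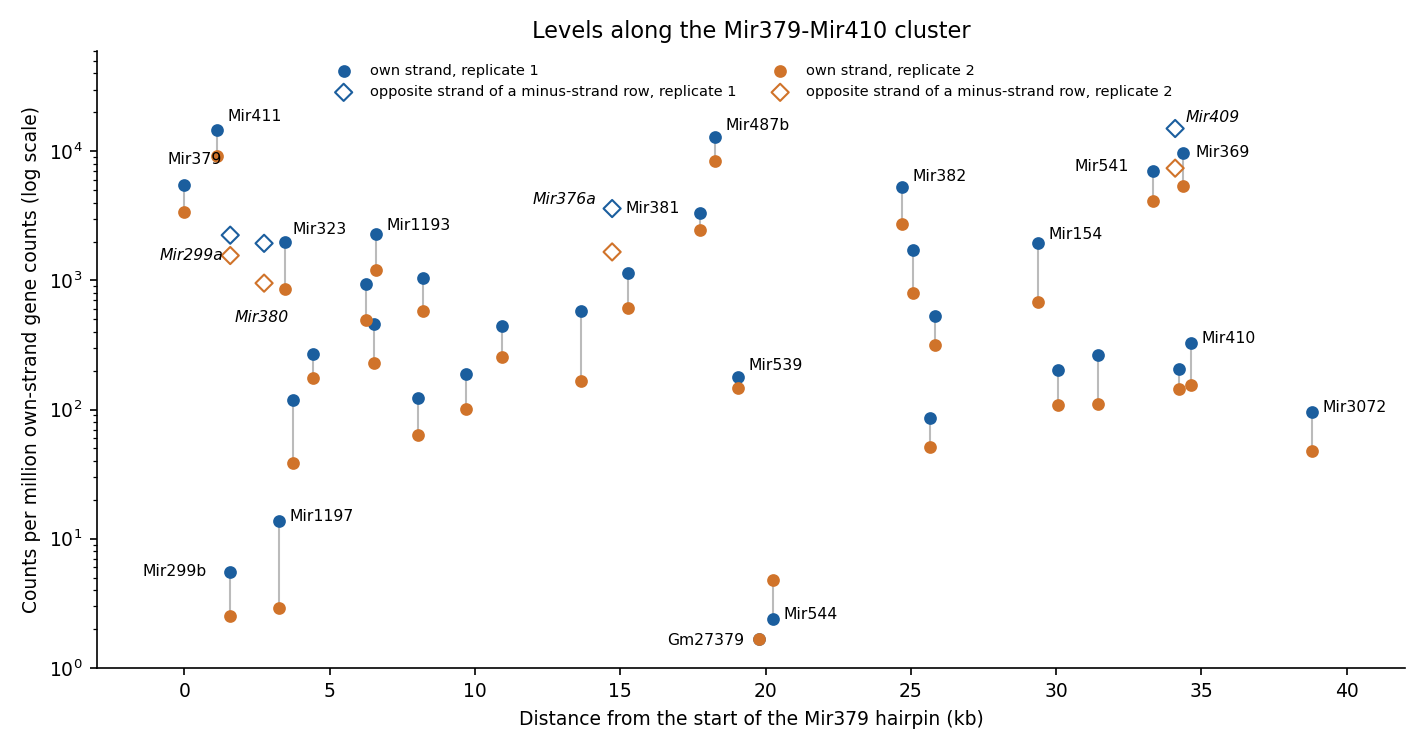
CPM of each member with counts (vertical axis, log scale) against distance from the start of Mir379 in kb, with a line joining the libraries; open diamonds are counts on the strand opposite a minus-strand row, placed at the hairpin there. Mir411, Mir487b and Mir369 stand at the top in separate parts of the cluster, with members under 100 CPM between them, and rows without counts are left out.

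The 4 minus-strand rows hold almost no reads of their own but many on the opposite, plus strand. Each lies over a plus-strand hairpin that has no row in the files: Mir299b over Mir299a, Gm25750 over Mir380, Gm25252 over Mir376a and Gm24321 over Mir409. Own-strand counts were 23 and 12 for Mir299b and 0 for the other 3. Opposite-strand counts at the 34 plus-strand members were 0 in both libraries, so stray antisense reads were not detected there. The 4 minus-strand rows held 94824 and 55392 opposite-strand counts, which was 48.8% and 24.1% of all opposite-strand counts in the tables.

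Over Gm24321, which starts at the same base as Mir409 (109743158 to 109743236), there were 62447 and 35418 plus-strand reads. On the scale of own-strand counts this was 14998 and 7396 CPM (11197 ± 5376, n = 2). The reads at Mir409 were 1.02 times those of Mir411 in replicate 1 and 0.810 times in replicate 2, so the Mir409 place held the most reads of the cluster in 1 library and the third most in the other. Over Gm25252, at Mir376a (109723781 to 109723848), the values were 3600 and 1661 CPM (2631 ± 1371). The miR-376 group is known for A-to-I editing of its precursors, which the counts do not show.
miR-376a-3p: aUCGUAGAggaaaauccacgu
miR-376b-3p: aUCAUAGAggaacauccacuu
The 3p arms of Mir376a and of Mir376b, which has no row over it on either strand and is not analysed here, differ at 1 base of the seed and at 3 of 21 positions in all. Over Mir299b, at Mir299a (109710638 to 109710700), the opposite-strand values were 2239 and 1558 CPM (1899 ± 482). Over Gm25750, at Mir380 (109711803 to 109711863), they were 1937 and 952 CPM (1444 ± 696).
With these reads added to members and total, the cluster held 9.43% and 5.38% of counts (7.41% ± 2.86, n = 2). Reads entered only on the opposite strand made up 23.6% and 21.2% of all reads of the cluster counted this way.

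Most members were lower in replicate 2 than in replicate 1. The 2 libraries were compared with an exact two-sided binomial test on counts scaled by TMM, adjusted by the Benjamini-Hochberg method over all tested genes. The test compares these libraries and not conditions. Of 32 members with at least 10 counts in a library, 29 were lower in replicate 2, 1 was higher and 2 did not pass. Over all 424 tested genes, 61.6% were called, 31.1% as lower and 30.4% as higher. As log2 of replicate 2 over replicate 1, the tested members had a median of -0.62, which is 1.54-fold more in replicate 1, and all tested genes had -0.01. With total counts as the scaling, which moves the median of all tested genes to -0.29, 31 members were lower and 0 higher, and the members' median was -0.90. Of all tested genes 61.8% were then called, 46.2% as lower and 15.6% as higher.

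The 3 most abundant members had ratios between -0.57 and -0.37. Mir411 had a log2 ratio of -0.41 (95% exact interval -0.43 to -0.39), Mir487b of -0.37 (-0.38 to -0.35) and Mir369 of -0.57 (-0.59 to -0.55). Mir541 stood at -0.50, Mir379 at -0.44, Mir382 at -0.66, Mir1193 at -0.63 and Mir300 at -0.62, with Mir134 at -0.82 and Mir323 at -0.93 further down. All of these passed the test. The members furthest down were Mir1197 at -1.92 (-2.91 to -1.09), Mir376c at -1.52 (-1.63 to -1.40), from 579 to 167 CPM, and Mir758 at -1.36 (-1.62 to -1.12), from 119 to 38.2 CPM. Mir154 followed at -1.25 (-1.31 to -1.19). Mir376c and Mir758 share a run of 20 or more bases with another hairpin, and reads that map to several places were not given to genes. At the other end were Mir381 at -0.18 (-0.21 to -0.14), which passed, and Mir539 at -0.02 (-0.18 to 0.13), which did not (adjusted p = 0.806, exact binomial test), with 180 and 146 CPM. With total counts as the scaling, Mir539 passed at -0.30. The 1 higher member was Mir544 at 1.23 (0.15 to 2.51), on 10 and 23 counts (adjusted p = 0.0363, exact binomial test), and it did not pass with total counts or with DESeq2 size factors. Mir1197 (109712317 to 109712436), Mir376c (109722718 to 109722803), Mir758 (109712810 to 109712890), Mir539 (109728129 to 109728202) and Mir544 (109729325 to 109729402) all lie upstream of Mirg, in no annotated host gene. Mir299b, on 23 and 12 counts, had an adjusted p of 0.138 in the same exact test.

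**Figure D3:**
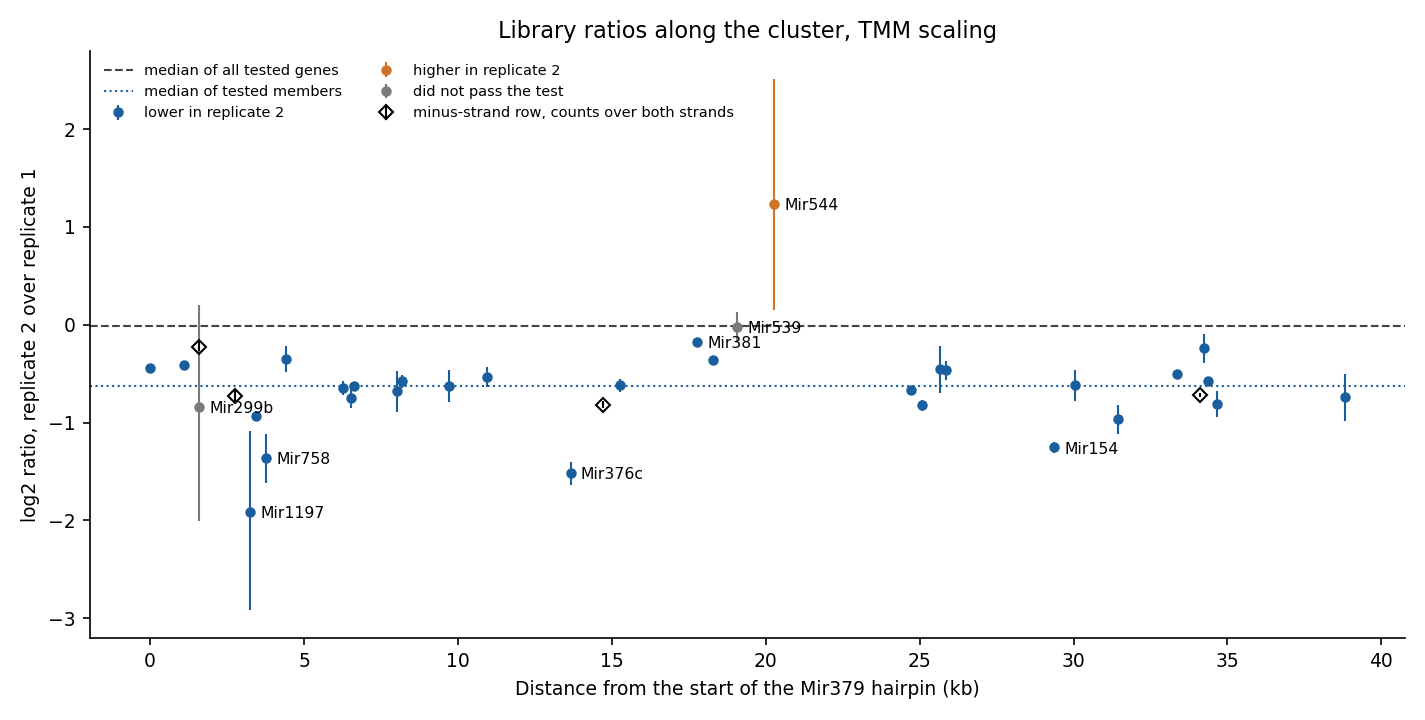
log2 ratio of replicate 2 over replicate 1 (vertical axis, TMM scaling) of the 32 tested members against distance from Mir379 in kb; bars are 95% exact intervals, and open diamonds give the minus-strand rows from counts over both strands. Most points lie around the members' median of -0.62, below the median of all tested genes at -0.01, with Mir544 above and Mir1197 and Mir376c furthest below.

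In counts over both strands, where 62.4% of 433 tested genes were called, 30.7% as lower and 31.6% as higher, the 4 minus-strand rows were all lower in replicate 2. The log2 ratios were -0.72 at Mir409 (-0.74 to -0.70), -0.82 at Mir376a (-0.85 to -0.78), -0.72 at Mir380 (-0.78 to -0.67) and -0.22 at Mir299a (-0.27 to -0.18). The first 3 lay below the members' median of -0.62 and Mir299a above it. That median is from own-strand counts, and the 2 fits differ slightly: Mir411 was at -0.39 over both strands and -0.41 on its own strand.

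For most members the share within the cluster changed less than the cluster's share of the library, which was 1.72-fold higher in replicate 1. With TMM scaling the cluster's counts were 1.42-fold higher in replicate 1. Among the 29 members with at least 100 counts in both libraries, the share of the cluster's counts differed between the libraries by a median of 1.11-fold. The largest changes in share were a 2.01-fold lower share of Mir376c in replicate 2, 1.81-fold for Mir758 and 1.68-fold for Mir154. Mir376c and Mir758 have the runs shared with other hairpins that are given above. Mir154 held 2.65% of the cluster (95% exact interval 2.60 to 2.71) in replicate 1 and 1.58% (1.53 to 1.64) in replicate 2. Among the shares that rose, that of Mir539 rose 1.40-fold, from 0.245% (0.227 to 0.263) to 0.341% (0.317 to 0.368). The share of Mir381 rose 1.26-fold, from 4.54% (4.47 to 4.62) to 5.71% (5.61 to 5.81). The log2 CPM of these 29 members in the 2 libraries gave Pearson r = 0.990 and Spearman rho = 0.986, across genes and not samples. Their log2 ratio showed little relation to distance from Mir379 (Spearman rho = -0.02, Pearson r = 0.02).

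The rest of the Dlk1-Dio3 domain, 21 listed genes from Mir1906-1 in Meg3 (start 109544541) to Mir1247 in Dio3os (end 110278129), was set beside it. It held 3.29% and 1.86% of counts (2.57% ± 1.01, n = 2), and the cluster exceeded it 2.24-fold and 2.30-fold. Its highest members were Mir431 with 12183 and 6987 CPM, Mir127 with 8644 and 5015, both opposite an exon of Rtl1, and Mir337 with 2620 and 1433. Of its 16 tested genes 13 were lower in replicate 2, 0 were higher and 3 did not pass, with a median log2 ratio of -0.59 against -0.62 for the cluster. Over all 424 tested genes, 31.1% were lower and 30.4% higher. The lowest of these 16 ratios was that of Mir1247 at -1.61, on 174 and 54 counts. With at least 100 counts required in both libraries, the ratios ran from -0.93 to 0.02 over 14 genes of the rest of the domain and from -1.52 to -0.02 over 29 members of the cluster. Below the lowest of the 14 were 5 members, namely Mir376c, Mir758, Mir154, Mir377 at -0.97 and, by less than its interval, Mir323. Among these, Mir376c and Mir758 have runs shared with other hairpins. Whether the 2 sets differ was not tested.

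**Figure D4:**
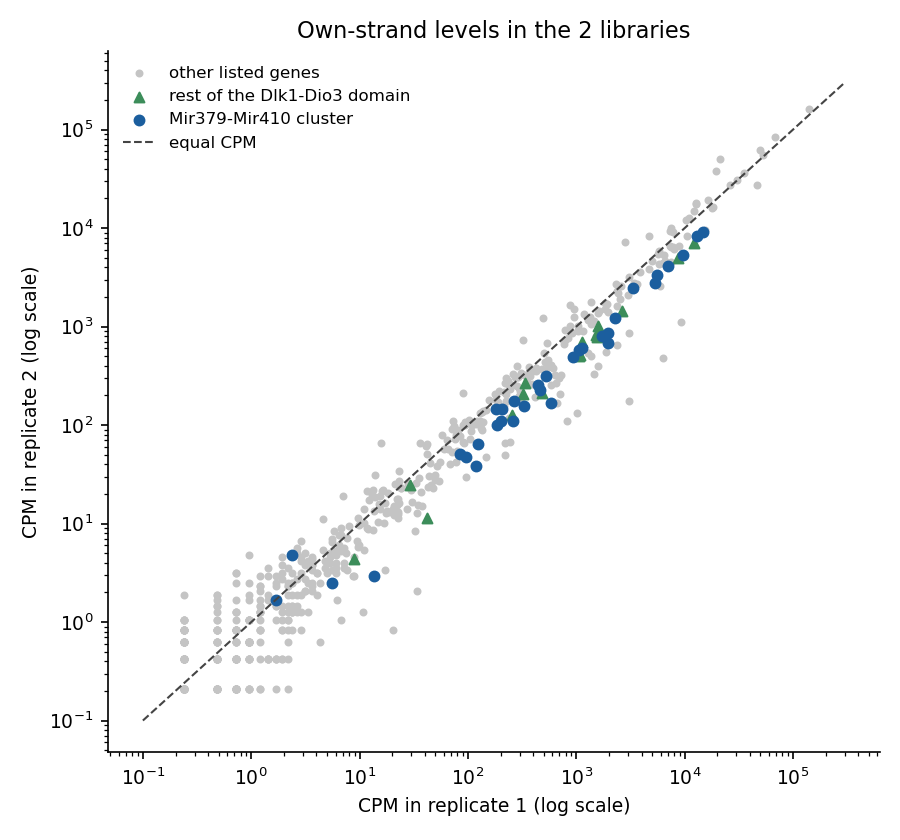
CPM in replicate 2 (vertical axis) against replicate 1 (horizontal axis), both log scales, for listed genes with counts in both libraries. Members of the Mir379-Mir410 cluster and the rest of the Dlk1-Dio3 domain lie mostly below the line of equal CPM over the whole range of levels, among them Mir411 at 14698 and 9132 CPM. CPM rests on total counts, with which other genes also lay lower in replicate 2. The median log2 ratio was then -0.90 for tested members, -0.87 for the rest of the domain and -0.19 for other tested genes.

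Markers of other cell types also differed between the libraries, and their part in the cluster's difference was not tested. All 3 heart muscle genes were higher in replicate 2. Of the Hox-expressing trunk 5 of 5 tested genes were lower in replicate 2, as were 7 of 7 epithelial genes. Of the liver and gut list 3 of 4 were lower and Mir194-1 was higher. Total counts gave the same numbers of calls for these lists. Of all 424 tested genes, 31.1% were lower and 30.4% higher with TMM, and 46.2% and 15.6% with total counts. Of the 4 mesenchymal genes, with sums of 6456 and 2919 CPM, 3 were lower, and 4 with total counts. The neural list, of which 9 of 11 names matched, summed to 339 and 306 CPM. Of its 5 tested genes 1 was lower and 2 were higher, which became 2 lower and 0 higher with total counts, and Mir124a-1, Mir124a-3 and Mir9-2 were at 0. The endothelial gene Mir126a had 53306 and 55503 CPM and was higher under both scalings. The 3 red cell genes summed to 1160 and 1713 CPM, 2 of them higher, or 1 higher and 1 lower with total counts. Every gene of the marker lists other than the neural list had counts in both libraries.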

How the data were processed

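The 2 tables hold raw read counts per microRNA gene as deposited by the authors, on mm10 with GENCODE M4 models per the README text deposited with them. Their columns have no header. They were read as counts over both strands, on the gene's own strand and on the opposite strand, since the first equals the sum of the others in all 1973 genes and the second holds nearly all counts. For the aligner, counter and trimming, the sources used here give no name. Lines that name no gene were kept out of totals. Unmapped reads were 26.3% and 25.5%, and reads with several places 23.3% and 23.5%. Reads on no gene's own strand were 8.98% and 7.41%, with the opposite-strand counts of genes among them. Reads on no gene on either strand were 7.05% and 5.32%.

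Positions and hosts came from GENCODE M21 (same assembly), which matched 1894 of 1973 identifiers. Opposite-strand counts were divided by the own-strand total. Genes with at least 10 counts in a library were tested with an exact conditional binomial test (scipy 1.17.1) given TMM sizes (edgeR 4.0.16), at an adjusted p of 0.05, log2 ratios with a prior count of 0.5. The test was checked on simulated data. These held counting error and set folds only, with known library sizes in place of TMM sizes, so differences between pools were not covered. Reads carry no molecular identifiers, so they are not independent molecules, and the intervals, floors and p-values measure counting error between these pools only.

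Full values are given for the 12 members highest by mean CPM, the 3 highest and 3 lowest log2 ratios, minus-strand rows with at least 100 opposite-strand counts, members that share a seed with the 12, and the 3 highest genes of the rest of the domain. Mir410, Mir495, Mir412, Mir668, Mir377, members near 0 and, from the rest of the domain, Mir1247 were added after their values were seen. The members and lists were chosen with earlier results of these data known.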

Additional observations from a re-analysis of the deposited data

How the results depend on the processing

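The cluster's share, 5.83%, ranged from 3.89% without genes that have a near-identical copy to 7.41% with opposite-strand reads added. The 3.89% is the share of a smaller set, without 4 members. These include Mir411 and Mir487b, the 2 most abundant, which together held 37.6% and 40.8% of the cluster's counts. The cluster's share was 4.29% without replicate 1 and 7.37% without replicate 2. The count of members lower in replicate 2, 29 of 32 tested, ranged from 28 to 33 over all alternatives, but the number tested changed too. It was 28 of 29 with at least 100 counts required and 29 of 33 with no filter on low counts. The 33 came with counts over both strands, where more members were tested. With 32 tested, it was 31 with total counts and 29 with DESeq2 size factors. Of all tested genes, 132 of 424 were lower with TMM, 196 of 424 with total counts and 133 of 433 over both strands. With DESeq2 size factors 146 of 424 genes were lower, and with no filter on low counts 131 of 740. With at least 100 counts required, 121 genes were lower, out of fewer tested. The count of members higher was 1, and it was 0 with total counts, with DESeq2 size factors (DESeq2 1.42.0), with no filter on low counts, and with at least 100 counts required, where Mir544 was not tested. Of all tested genes, 129 of 424 were higher with TMM, 66 of 424 with total counts and 108 of 424 with DESeq2 size factors. With no filter on low counts 125 of 740 genes were higher. With at least 100 counts required, 112 genes were higher, out of fewer tested. The log2 ratio of Mir544 was 0.97 with total counts and 1.16 with DESeq2 size factors, and the cause was not tested. The members' median log2 ratio of -0.62 was -0.90 with total counts and -0.69 with DESeq2 size factors. No paired analysis was possible because the labels give 1 group. Low counts limit Mir1197, Mir544, Mir299b and Gm27379, and with 2 libraries a level or share has no closer error than its SD.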
